A study of Mus musculus with 32 samples.

Results

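The integrated stress response genes described here are 10 of the 24062 genes counted in the cortex of S100a10 bacTRAP mice. They are Atf4, the transcription factor at the centre of the response, and 9 genes it is known to act on: Eprs, Asns, Chac1, Trib3, Ddit3, Sesn2, Psat1, Phgdh and Slc7a11. The 10 rows were taken by name from the count tables, and the set was chosen by the levels of these genes in the same libraries, by group and fraction, with earlier results known. Their own values are therefore a description without p-values, and how many of them passed the threshold of the fit over all genes is given only as a count beside the share of all genes that did. Mice of the strain Tg(S100a10-EGFP/Rpl10a)ES691Htz carry EGFPL10a, a ribosomal protein L10a tagged with EGFP, under the regulatory elements of S100a10, so that polysome-bound RNA of the cells expressing it can be pulled down (TRAP) and set beside RNA of the whole cortex (input). The Gh mice were group housed and the Sh mice single housed, both on vehicle. The Sh + Flx and Sh + Flx anxious mice were single housed and drank water with 0.167 g/L fluoxetine for 21 days, and the labels give the behavior of the former as normal and of the latter as anxious. According to the study's methods the animals were adult males, isolated from weaning, and all carried the transgene. Each of the 8 combinations of group and fraction had 4 libraries, each from the pooled cortices of 3 mice.

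The integrated stress response is a shared route from several kinds of stress to a change in translation. Kinases that sense lack of amino acids, misfolded protein in the endoplasmic reticulum, double-stranded RNA or lack of heme phosphorylate the initiation factor eIF2, which slows its recycling by eIF2B and general protein synthesis while the translation of Atf4 mRNA goes up. ATF4 then raises genes for amino acid synthesis, uptake and tRNA charging, for redox balance and, when stress lasts, for cell death. Because ATF4 is controlled mostly through translation, Atf4 mRNA bound to polysomes and total Atf4 mRNA need not move together.

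ATF4 binds DNA as a dimer with C/EBP proteins at amino acid response elements, and the letters TGATGNAA are the core of that element. These letters, searched on both strands in the 250 bases before each RefSeq start site (build GRCm38.p6), stood in 3 of the 10 members and in 3.53% of 27025 genes. The stretches that hold them are shown because they are where the members share the sequence the pathway is known for. They read 5′ to 3′ along the gene, with 15 bases on each side, and the capitals mark the match.
Asns, chr6:7693210-7693247, minus strand: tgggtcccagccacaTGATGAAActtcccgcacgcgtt
Chac1, chr2:119351034-119351071, plus strand: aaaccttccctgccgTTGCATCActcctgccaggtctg
Slc7a11, chr3:50443638-50443694, minus strand: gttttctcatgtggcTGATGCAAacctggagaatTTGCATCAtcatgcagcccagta
The match began 23 bases before the start of Asns and 193 bases before that of Chac1, where it lay on the other strand. Slc7a11 held 2 matches, 66 and 47 bases before the start, on opposite strands. The listed start of Slc7a11 lies within the gene as annotated, since longer transcripts begin further upstream. The cAMP response element TGACGTCA was in none of the 10 windows and in 1.62% of all, and the CCAAT box, CCAAT, was in 7 of the members and in 34.5% of all. No match says only that the letters were not in these windows.

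Total counts in genes ranged from 9776244 to 64788703 in TRAP libraries and from 19265435 to 34515281 in input libraries. The libraries Gh TRAP 2 and 3 differed by little more than counting error, with a mean chi-square per gene of 1.13 where counting error alone gives 1 and the other Gh TRAP pairs gave 15.1 to 33.5. They enter as a single sum, counted as 1 sample, which gives n = 3 for Gh TRAP. In 7 of the 8 combinations of group and fraction, replicates 1 and 4 and replicates 2 and 3 were the closest pairs by the same measure, the exception being Sh + Flx anxious TRAP. The tests count such libraries as independent samples, and the sources used here do not say what the pairs share. Sh TRAP 2 and 3 stood apart, with S100a10 at 20.4 and 11.2 CPM (counts scaled to the size of the library) where the remaining TRAP libraries had 41.5 to 73.0 and input had 5.45 to 10.3. The nuclear RNA Malat1 was at 25400 and 40710 CPM in them, at 3106 to 8117 CPM in the remaining TRAP libraries and at 25765 to 45584 CPM in input. Reads outside gene models made up 50.3 and 58.6% of their totals, 25.2 to 39.8% in the remaining TRAP libraries and 45.1 to 55.2% in input. By these measures the pair lay closer to input than the other TRAP libraries did, and the part of the pull-down in this was not tested. Calls between TRAP groups that rest on the pair, and most such differences, are given with and without it. Differences of Sh TRAP from Sh input include the pair. The 2 libraries that remain without it, Sh TRAP 1 and 4, were close to each other (mean chi-square per gene 2.17, against 64.8 to 407 for the other Sh TRAP pairs). The label names layer 5a S100a10 neurons. The summed level of 7 genes listed as layer 5 markers was lower in TRAP (676 to 1124 CPM) than in input (1187 to 1393 CPM), but the 7 did not all move alike. Bcl11b, Etv1 and Crym were lower in every TRAP than in every input library, while Rorb, Fezf2, Parm1 and Deptor overlapped. The median of Deptor was higher in TRAP (160 CPM) than in input (137 CPM). Rorb made the largest part of the sum, with a median of 498 CPM in input and 324 CPM in TRAP. The list was not made for layer 5a, so the sum does not measure how much RNA of the labeled cells was pulled down. The summed level of 9 meningeal fibroblast markers was higher in TRAP (1150 to 3484 CPM) than in input (56.3 to 132 CPM). In bulk RNA, fewer cells of a type and less RNA per cell cannot be told apart. Errors and p-values measure the spread between these pooled libraries.

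The levels of the members spanned a wide range. Per kilobase of exon, the median level in TRAP was highest for Slc7a11 at 87.1 CPM, followed by Atf4 at 58.7 CPM and Psat1 at 32.4 CPM. Eprs and Asns had 24.5 and 14.6 CPM per kilobase. Ddit3, Phgdh, Sesn2 and Chac1 lay between 1.97 and 3.85 CPM per kilobase, and Trib3 at 0.0778 CPM per kilobase was close to the limit of detection. In input the order differed, with Atf4 at 58.1 CPM per kilobase, Psat1 at 46.6, Asns at 22.7, Eprs at 13.4 and Slc7a11 at 8.58. The ranges of Ddit3, Phgdh, Sesn2 and Chac1 over the libraries overlapped in TRAP, so that their order there is not beyond the spread.

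**Figure D1:**
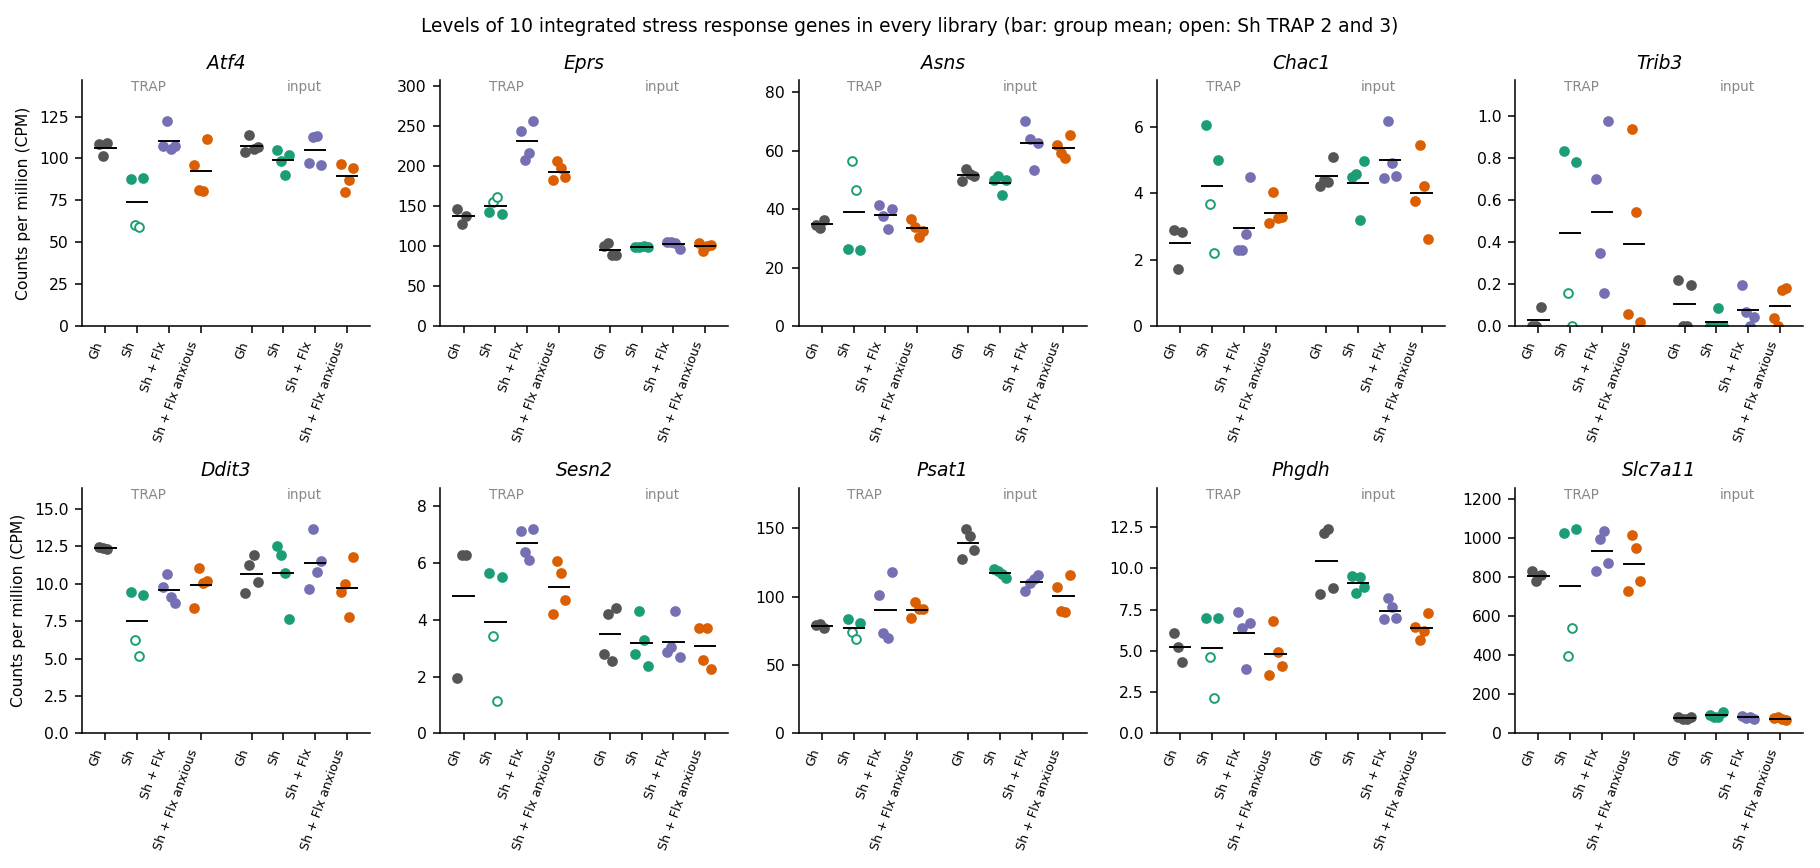
CPM (y axis, linear from 0) of the 10 members in every library, by group (x axis) and fraction; black bars are group means and open circles are Sh TRAP 2 and 3. Eprs is higher in every Sh + Flx TRAP library (207.5 to 256.4 CPM) than in every Gh and Sh TRAP library, while its input libraries lie between 88.6 and 105.2 CPM.

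Atf4 mRNA lies on chromosome 15 (80255184 to 80257545, plus strand). In TRAP it was at 109, 101 and 109 CPM in Gh, at 87.5, 60.3, 59.2 and 88.5 CPM in Sh, at 107.5, 122, 106 and 107.1 CPM in Sh + Flx and at 96.1, 81.1, 80.5 and 111 CPM in Sh + Flx anxious. All 4 Sh libraries were below all Gh and all Sh + Flx libraries, and the Sh + Flx anxious libraries overlapped with those of each other group. The group means were 106 ± 4.25 (SD, n = 3), 73.9 ± 16.3, 111 ± 7.71 and 92.3 ± 14.7 CPM (n = 4 each). On the log2 scale the difference was -0.53 (SE 0.16) for Sh against Gh and 0.58 (SE 0.15) for Sh + Flx against Sh, while Sh + Flx against Gh was 0.05 (SE 0.16). The 2 lowest values belong to Sh TRAP 2 and 3. Without them Atf4 stood at 88.0 ± 0.728 CPM in Sh (n = 2, the close pair named above, so that this SD may not hold the spread between pools), the differences were -0.29 and 0.33, and the remaining Sh libraries still lay below all Gh and Sh + Flx libraries.

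In input, Atf4 varied less. The means were 107.5 ± 4.25 CPM in Gh, 99.0 ± 6.58 in Sh, 105 ± 9.45 in Sh + Flx and 89.5 ± 7.75 in Sh + Flx anxious (SD, n = 4). The Sh + Flx anxious libraries, at 79.8 to 96.9 CPM, were all below those of Gh, at 104.1 to 114 CPM, with a log2 difference of -0.26 (SE 0.07). TRAP and input levels of Atf4 overlapped in Gh (log2 difference -0.02, SE 0.13).

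Few genes upstream of Atf4 passed. Of the 8 eIF2 kinases, their regulators and phosphatase subunits, none passed the edgeR test (adjusted p under 0.05 over all genes) in any of the 6 comparisons between TRAP groups, with at most 1 of the 8 at an unadjusted p under the threshold in each. In input, 2 rose in Sh + Flx anxious against Gh, a comparison in which 11.5% of 15690 genes passed. Ppp1r15b, the constitutive subunit that directs the phosphatase to eIF2, rose by 0.43 on the log2 scale (SE 0.08, adjusted p = 0.000697), from 34.9 ± 3.33 to 47.0 ± 3.22 CPM (n = 4 each). Eif2ak3, which encodes the endoplasmic reticulum kinase PERK, rose by 0.48 (SE 0.15, adjusted p = 0.0398) and lost the call in 8 of 14 alternatives. Among the 8 subunits of eIF2 and eIF2B, 1 rose in TRAP of Sh + Flx against Sh, where 6.46% of all genes passed, namely Eif2b2 (0.89, SE 0.25, adjusted p = 0.045), and this call was lost without Sh TRAP 2 and 3 (0.63, adjusted p = 0.197). In TRAP of Sh + Flx anxious against Sh, where 10.5% of all genes passed, Eif2s2, the beta subunit of eIF2, rose (0.63, SE 0.13, adjusted p = 0.00869) and kept the call without those libraries (0.46, adjusted p = 0.0238).

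Ddit3 encodes CHOP, a transcription factor of the C/EBP family that acts downstream of ATF4 and is known for its part in stress-induced cell death. Ddit3 overlaps Mars1 and Mbd6 on the other strand (chromosome 10, 127290793 to 127296291), and the library kit does not mark strand, so reads of these genes cannot be told apart where they overlap. In TRAP Ddit3 was at 12.5, 12.4 and 12.4 CPM in Gh, at 9.48, 6.22, 5.15 and 9.26 CPM in Sh, at 9.78, 10.6, 9.12 and 8.74 CPM in Sh + Flx and at 8.37, 11.1, 10.04 and 10.2 CPM in Sh + Flx anxious. All 12 libraries of single-housed mice, treated or not, were below all Gh libraries. The log2 differences from Gh were -0.72 (SE 0.23) in Sh, -0.38 (SE 0.22) in Sh + Flx and -0.32 (SE 0.22) in Sh + Flx anxious, and that of Sh was -0.42 without Sh TRAP 2 and 3. In input the libraries of all groups overlapped, at 7.67 to 13.7 CPM.

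A list of 5 other transcription factors that work with ATF4 was compared next. In Gh, where 42.2% of 17015 genes differed between the fractions, 4 of the 5 rose from input to TRAP. Nupr1, a stress-induced chromatin protein, stood at 118 ± 20.1 CPM in TRAP (n = 3) and 2.68 ± 1.03 CPM in input (n = 4), a log2 difference of 5.47 (SE 0.40, adjusted p = 1.06e-12). Atf3 and Atf5, which are themselves ATF4 targets, rose by 2.98 (SE 0.92, adjusted p = 0.00967) and 1.04 (SE 0.27, adjusted p = 0.00229), Atf3 at 1.497 ± 1.79 CPM in TRAP and 0.193 ± 0.148 CPM in input. The Atf3 call was lost without the summed Gh TRAP 2 and 3, and with replicates summed, where its adjusted p reached 0.371. Between groups, Cebpb, a dimer partner of ATF4, rose in TRAP of Sh + Flx against Sh, from 3.73 ± 0.483 to 9.48 ± 3.98 CPM (log2 difference 1.34, SE 0.33, adjusted p = 0.0304). Its Sh + Flx libraries were at 11.5, 9.06, 4.10 and 13.3 CPM, the third of which overlapped with Sh, at 3.33 to 4.34 CPM. Without Sh TRAP 2 and 3 the difference was 1.32 and no longer passed (adjusted p = 0.0923).

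Trib3, Sesn2 and Chac1 are stress-induced genes that feed back on the response or on growth. Trib3 encodes a pseudokinase that restrains ATF4 and AKT signaling. It had 0, 0 and 4 counts in the Gh TRAP libraries, 30, 2, 0 and 16 in Sh, 18, 10, 11 and 52 in Sh + Flx and 2, 24, 36 and 1 in Sh + Flx anxious. Thus 2 of 3 Gh libraries held no read of Trib3 and every Sh + Flx library held some, the lowest being 10. In input Trib3 had 0 to 7 counts and was at 0 in 7 of 16 libraries, so that it was not kept in the input fit. No fold is given, because the Gh level is at the floor of 3 counts a library or close to it.

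Sesn2 encodes sestrin 2, which lowers mTORC1 activity when leucine is scarce. In TRAP it was at 1.97, 6.26 and 6.27 CPM in Gh, at 5.66, 3.43, 1.14 and 5.51 CPM in Sh, at 7.10, 6.38, 6.11 and 7.20 CPM in Sh + Flx and at 4.18, 6.06, 5.65 and 4.70 CPM in Sh + Flx anxious. The Sh + Flx libraries lay above all Sh libraries (log2 difference 0.76, SE 0.40) but not above all Gh libraries. The difference from Sh was 0.27 without Sh TRAP 2 and 3.

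Chac1 encodes an enzyme that degrades glutathione, and its promoter holds the match shown above. In TRAP it was at 2.90, 1.72 and 2.85 CPM in Gh, at 6.07, 3.67, 2.19 and 5.02 CPM in Sh, at 2.29, 2.30, 2.77 and 4.501 CPM in Sh + Flx and at 3.10, 4.03, 3.26 and 3.28 CPM in Sh + Flx anxious. Its highest values were in Sh TRAP 1 and 4, whereas Atf4 and Ddit3 were below Gh in the same libraries. The log2 difference of Sh from Gh was 0.77 (SE 0.39) over all libraries and 1.15 without Sh TRAP 2 and 3. In input Chac1 was at 2.63 to 6.18 CPM and all groups overlapped.

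Other genes that ATF4 is known to raise under stress formed a list of 14, of which 11 were expressed enough to test in TRAP. In Sh + Flx against Sh, where 6.46% of 16754 genes passed, 1 of the 11 rose, and the median log2 difference of the list was 0.22 beside -0.02 over all genes. That gene was Sqstm1, which encodes the autophagy receptor p62 and is also a target of NRF2. Its Sh TRAP libraries had 215, 167, 116 and 224 CPM and its Sh + Flx TRAP libraries 529, 641, 653 and 409 CPM, groups that did not overlap. The log2 difference was 1.62 (SE 0.29, adjusted p = 0.0109), and 1.34 (adjusted p = 0.0346) without Sh TRAP 2 and 3. In Gh TRAP the mean was 314 ± 52.6 CPM (SD, n = 3), above that of Sh at 181 ± 49.8 CPM (n = 4). Against Gh, Sqstm1 did not pass in TRAP of either fluoxetine group. In Sh + Flx anxious TRAP it was at 883, 329, 306 and 773 CPM, again above all Sh libraries (1.66, SE 0.29, adjusted p = 0.0049; 1.39, adjusted p = 0.0193 without Sh TRAP 2 and 3), with replicates 1 and 4 well above 2 and 3. Its input level stayed between 98.3 and 124 CPM, and the change in TRAP exceeded that in input by 1.43 (SE 0.32, adjusted p = 0.0215) for Sh + Flx against Sh, a call lost without Sh TRAP 2 and 3 (1.18, adjusted p = 0.0508). Gadd45a, a growth arrest gene of the list, passed in Sh + Flx against Sh only without that pair (1.04, SE 0.20, adjusted p = 0.0129), and is named after its values were seen. In input, Map1lc3b, which encodes an autophagosome protein, fell by 0.19 on the log2 scale in Sh + Flx anxious against Gh (SE 0.06, adjusted p = 0.0464), 1 of 11 beside 11.5% of all genes, and lost the call in 9 of 14 alternatives.

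Asns encodes asparagine synthetase, which makes asparagine from aspartate, and is 1 of the 3 members with a match above. In input it was at 49.6, 53.7, 52.0 and 51.4 CPM in Gh, at 50.1, 51.2, 44.9 and 49.9 CPM in Sh, at 70.1, 63.8, 53.5 and 62.7 CPM in Sh + Flx and at 61.8, 59.1, 57.6 and 65.3 CPM in Sh + Flx anxious. Both fluoxetine groups lay above all Sh libraries, and only 1 Sh + Flx library fell within the range of Gh. The log2 differences from Sh were 0.34 (SE 0.08) in Sh + Flx and 0.31 (SE 0.08) in Sh + Flx anxious, and those from Gh were 0.27 and 0.24 (SE 0.08 each). In TRAP no such difference was seen: the Sh + Flx libraries, at 33.1 to 41.5 CPM, overlapped with Gh, at 33.5 to 36.4 CPM. Sh TRAP held the extremes, with 56.4 and 46.7 CPM in replicates 2 and 3 and 26.5 and 26.1 CPM in replicates 1 and 4, so that the TRAP difference of Sh + Flx from Sh turned from -0.04 to 0.54 without replicates 2 and 3.

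The summed level of 6 interneuron markers went with Asns in these libraries. In input it was 1261 to 1360 CPM in Gh and 1297 to 1376 CPM in Sh, and 1549 to 1630 CPM in Sh + Flx and 1545 to 1612 CPM in Sh + Flx anxious, without overlap. Gad2, which encodes a GABA-making enzyme, made most of this sum, with a median of 944 CPM in input beside 1460 CPM for the sum. Of the 6, Gad2 rose in both fluoxetine groups against Gh (0.39 and 0.37, SE 0.04 each, adjusted p = 1.33e-06 and 5.66e-07), Pvalb fell, and the other 4 did not pass. In Sh TRAP the sum was 1075 and 1263 CPM in replicates 2 and 3 and 622 and 616 CPM in replicates 1 and 4. None of the 6 was at 0 in any library, and their part in the level of Asns was not tested.

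Phgdh and Psat1 encode the first and second enzymes of serine synthesis from glycolysis, which in the brain are found mainly in astrocytes. In input Psat1 was at 128, 149.8, 144 and 134 CPM in Gh, at 120.5, 119, 116 and 114 CPM in Sh, at 104.5, 109.7, 113 and 116 CPM in Sh + Flx and at 107, 89.3, 88.7 and 116 CPM in Sh + Flx anxious. All 12 libraries of single-housed mice were below all Gh libraries. The log2 differences from Gh were -0.24 in Sh, -0.33 in Sh + Flx and -0.47 in Sh + Flx anxious (SE 0.07 each).

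Phgdh in input was at 8.45, 12.1, 12.4 and 8.83 CPM in Gh, at 9.52, 8.52, 9.47 and 8.88 CPM in Sh, at 6.93, 8.20, 7.67 and 6.97 CPM in Sh + Flx and at 6.46, 5.66, 6.22 and 7.30 CPM in Sh + Flx anxious. Both fluoxetine groups were below all Gh and all Sh libraries. The log2 differences from Gh were -0.49 in Sh + Flx and -0.70 in Sh + Flx anxious (SE 0.14 each), and that of Sh, which overlapped with Gh, was -0.19 (SE 0.14). In the same input libraries, then, Asns was higher and Psat1 and Phgdh were lower in the fluoxetine groups than in Gh.

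Levels of 9 astrocyte markers stand beside these values. Their summed level in input was 3046 to 4222 CPM in Gh and 3309 to 4891 CPM in Sh. It was 3222 to 4209 CPM in Sh + Flx and 3277 to 4874 CPM in Sh + Flx anxious, overlapping in all groups. None of the 9 was at 0 in any library. Slc1a2 made most of the sum, with a median of 3069 CPM beside 3701 CPM for the sum. The sum was higher in replicates 1 and 4 than in 2 and 3 in Gh, Sh and Sh + Flx. In Sh + Flx anxious it was lower. In Gh it was 4069 and 4222 against 3046 and 3170 CPM. This split widens the ranges that overlap. Phgdh split the other way in Gh, Sh + Flx and Sh + Flx anxious, and did not split in Sh. The summed level of 7 oligodendrocyte markers in input was 1669 to 1917 CPM in Gh, 1536 to 1892 CPM in Sh, 1292 to 1402 CPM in Sh + Flx and 1013 to 1344 CPM in Sh + Flx anxious, and its part in the difference of Psat1 and Phgdh was not tested. In TRAP, Psat1 was at 69.3 to 118 CPM and Phgdh at 2.15 to 7.37 CPM, with no fluoxetine group wholly below Gh.

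Other enzymes of amino acid and one-carbon metabolism gave few calls. Of 13 measured, none passed edgeR's test between TRAP groups over all libraries (without Sh TRAP 2 and 3, Got1 did in Sh + Flx anxious against Sh, at 0.50, SE 0.14, adjusted p = 0.0401), with at most 1 at an unadjusted p under the threshold in each comparison. In input of Sh + Flx anxious against Gh, Aldh1l2, a mitochondrial enzyme of folate metabolism, rose by 0.61 (SE 0.17, adjusted p = 0.0195), and 11.5% of all genes passed there. Gpt2, the mitochondrial alanine transaminase, fell by 0.35 on the log2 scale (SE 0.09, adjusted p = 0.0131), and by 0.31 in Sh + Flx against Gh (SE 0.09, adjusted p = 0.0443), a call that 9 of 14 alternatives lost. Among 10 amino acid transporters, 2 rose in each of these comparisons, beside 5.31% (Sh + Flx) and 11.5% (Sh + Flx anxious) of all genes. The neutral amino acid carrier Slc1a4 rose in input of Sh + Flx (0.45, SE 0.11, adjusted p = 0.0176) and Sh + Flx anxious (0.62, SE 0.11, adjusted p = 0.000355) against Gh. It was at 15.1 to 20.4 CPM in the Gh libraries and at 22.7 to 26.1 and 26.4 to 29.9 CPM in those of the fluoxetine groups, without overlap. Against Sh it rose in Sh + Flx anxious (0.39, SE 0.11, adjusted p = 0.0309), with overlap. Slc7a1, a carrier of cationic amino acids, rose in Sh + Flx against Gh (0.35, SE 0.09, adjusted p = 0.0183), and Slc38a2, an ATF4-induced carrier of small neutral amino acids, in Sh + Flx anxious against Gh (0.23, SE 0.07, adjusted p = 0.0378), a call lost in 8 of 14 alternatives.

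Eprs encodes the enzyme that loads glutamate and proline onto their tRNAs and sits in the multisynthetase complex. It lies on chromosome 1 (185361417 to 185428360, plus strand). In TRAP it was at 147, 128 and 137 CPM in Gh, at 142, 156, 162 and 139.7 CPM in Sh, at 244, 207.5, 217 and 256 CPM in Sh + Flx and at 183, 206, 197 and 186 CPM in Sh + Flx anxious. Both fluoxetine groups stood above every Gh and Sh library, and Gh and Sh overlapped. The means were 138 ± 9.41 CPM in Gh (SD, n = 3) and 150.0 ± 10.7, 231 ± 22.8 and 193 ± 10.7 CPM in the other groups (n = 4 each). On the log2 scale Sh + Flx was above Gh by 0.74 (SE 0.13), which is 1.67-fold, and above Sh by 0.62 (SE 0.12). Sh + Flx anxious was above Gh by 0.49 (SE 0.13) and above Sh by 0.37 (SE 0.12). These differences changed little without Sh TRAP 2 and 3, at 0.73 and 0.72 for Sh + Flx and 0.48 and 0.46 for Sh + Flx anxious.

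The input libraries of Eprs lay at 88.6 to 105 CPM in all groups, and no group stood apart. The change of Sh + Flx against Gh in TRAP exceeded that in input by 0.64 (SE 0.12), and against Sh by 0.57 (SE 0.12). Eprs was more abundant in TRAP than in input in every group, by 0.53 in Gh, 0.60 in Sh, 1.17 in Sh + Flx and 0.95 in Sh + Flx anxious on the log2 scale. These are the values for which Eprs stands in the set, and they are a description.

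ATF4 is known to raise many cytosolic aminoacyl-tRNA synthetases together. Of the 19 tested in TRAP beside Eprs, none passed in Sh + Flx against Gh, where 0.00597% of all genes passed, 1 had an unadjusted p under the threshold, and their median log2 difference was 0.13, with 15 of 19 positive. In Sh + Flx against Sh none passed edgeR's test, 4 had an unadjusted p under the threshold and the median was 0.10, beside -0.02 over all genes. The highest of the 19 was Aars, the alanyl-tRNA synthetase, at 0.43 (SE 0.19, adjusted p = 0.786) against Gh. Without Sh TRAP 2 and 3 Aars passed against Sh (0.69, SE 0.16, adjusted p = 0.0328). In Sh + Flx anxious against Sh, 1 of the 19 rose, which is below the 10.5% of all genes that passed. This was Hars, the histidyl-tRNA synthetase, which went from 44.9 ± 1.84 to 66.6 ± 4.31 CPM (0.57, SE 0.13, adjusted p = 0.0124) and kept the call without Sh TRAP 2 and 3 (0.53, adjusted p = 0.0286). Hars also rose in input of the same groups (0.26, SE 0.07, adjusted p = 0.0327), a call lost in 7 of 14 alternatives. The 3 scaffold proteins of the complex in which Eprs sits, Aimp1, Aimp2 and Eef1e1, gave no edgeR call between groups in either fraction, and at most 2 of them had an unadjusted p under the threshold in a comparison.

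**Figure D2:**
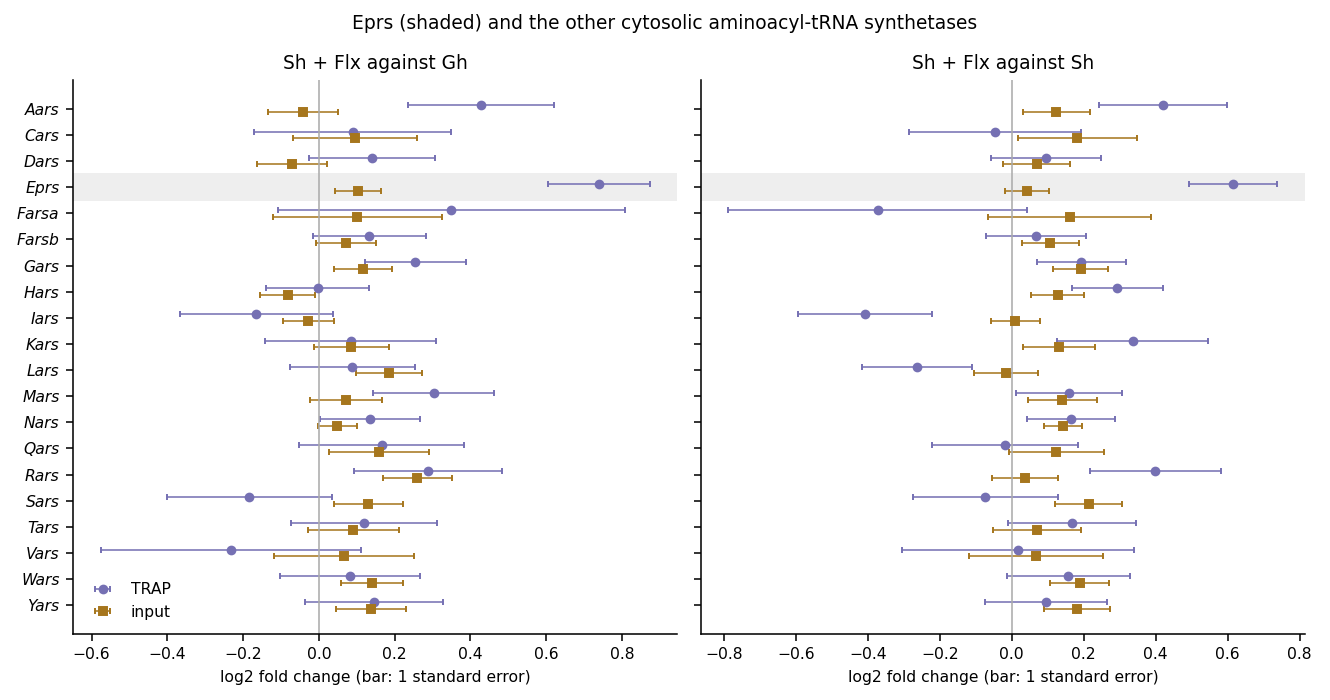
Log2 fold change (x axis, bars of 1 standard error) of the 20 cytosolic aminoacyl-tRNA synthetases (y axis) in Sh + Flx against Gh and against Sh, in TRAP (circles) and input (squares), with Eprs shaded. In TRAP, Eprs has the highest value in both panels, at 0.74 and 0.62, while its input values are 0.10 and 0.04.

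Slc7a11 encodes xCT, the cystine and glutamate exchanger that feeds glutathione synthesis. In the brain it is known to be strong in the meninges and is also found in astrocytes. In TRAP it was at 832.8, 779 and 809 CPM in Gh, at 1024, 397, 542 and 1049 CPM in Sh, at 833.4, 995, 1039 and 875 CPM in Sh + Flx and at 730.3, 1018, 951 and 781 CPM in Sh + Flx anxious. In input it was at 67.7 to 108 CPM. Every TRAP library was above every input library, and the log2 difference between the fractions was 3.36 (SE 0.20) in Gh, 3.02 in Sh, 3.51 in Sh + Flx and 3.53 in Sh + Flx anxious.

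The meningeal fibroblast markers went with it between the fractions and within Sh TRAP, but not between Gh and Sh + Flx. Each of the 9, from the highest by median level, Igf2 (708 to 2212 CPM in TRAP, 34.0 to 106 CPM in input) to the lowest in TRAP, Igfbp2 (11.6 to 44.7 CPM and 1.13 to 2.25 CPM), was higher in every TRAP than in every input library, and none was at 0. Within Sh TRAP, where Slc7a11 was highest in replicates 1 and 4 and lowest in 2 and 3, the summed markers were at 3484 and 3361 CPM in the former and at 1150.2 and 1492 CPM in the latter. The summed level of 6 mural cell markers was at 186 and 182 CPM in the former and at 100.1 and 89.6 CPM in the latter. In TRAP of Sh + Flx the summed meningeal markers, at 1805 to 2418 CPM, were below all Gh libraries, at 2534 to 2697 CPM, while Slc7a11 was not lower there. In input they were at 56.3 to 75.3 CPM in Sh + Flx anxious and at 101 to 120.3 CPM in Sh. The summed level of 7 endothelial markers was also higher in TRAP (82.5 to 134 CPM) than in input (10.5 to 17.9 CPM), without overlap. The part of any of these cell types in the level of Slc7a11 was not tested. Between groups in TRAP the sign of its log2 difference turned without Sh TRAP 2 and 3, from 0.31 to -0.15 for Sh + Flx against Sh and from -0.11 to 0.34 for Sh against Gh. In input it was higher in all Sh than in all Gh libraries (82.9 to 108 against 75.3 to 82.4 CPM, log2 difference 0.24, SE 0.08) and lower on average in Sh + Flx anxious than in Sh (log2 difference -0.30, SE 0.08), with overlap.

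Genes of NRF2, which also acts on Slc7a11 and Sqstm1, were measured beside the ATF4 lists. In Gh, Nfe2l2, the gene of NRF2 itself, was at 224 ± 20.3 CPM in TRAP (n = 3) and 26.6 ± 1.86 CPM in input (n = 4), a log2 difference of 3.07 (SE 0.18, adjusted p = 1.15e-14), and its target Nqo1 rose by 2.61 (SE 0.42, adjusted p = 6.3e-06), as did Hmox1, heme oxygenase 1, by 1.02 (SE 0.27, adjusted p = 0.00254). Srxn1, the sulfiredoxin gene, rose in both fluoxetine groups in input, by 0.37 in Sh + Flx (SE 0.06, adjusted p = 0.000438) and 0.43 in Sh + Flx anxious (SE 0.06, adjusted p = 2.77e-05) against Gh, and by 0.38 (SE 0.06, adjusted p = 0.000568) and 0.44 (SE 0.06, adjusted p = 2.75e-05) against Sh. Gclc, a subunit of the enzyme that starts glutathione synthesis, rose in Sh + Flx anxious against Gh (0.25, SE 0.06, adjusted p = 0.00697) and against Sh (0.22, SE 0.06, adjusted p = 0.0269, lost in 8 of 14 alternatives). Prdx1, a peroxiredoxin of the same list, fell against Gh by 0.36 on the log2 scale in Sh + Flx (SE 0.08, adjusted p = 0.00493) and by 0.29 in Sh + Flx anxious (SE 0.08, adjusted p = 0.0129). In input against Gh, then, 1 of the 11 genes of the list rose and 1 fell in Sh + Flx, beside 5.31% of all genes. In Sh + Flx anxious 2 rose and 2 fell, beside 11.5%. In TRAP Srxn1 rose against Sh by 0.64 (SE 0.15, adjusted p = 0.0246) and 0.63 (SE 0.15, adjusted p = 0.0167), and both calls were lost without Sh TRAP 2 and 3 (adjusted p = 0.0826 and 0.0704). Of the 11, 2 passed in TRAP of Sh + Flx against Sh, beside 6.46% of all genes, the other being Hmox1 (1.16, SE 0.29, adjusted p = 0.0303), which also lost the call without those libraries (adjusted p = 0.143).

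**Figure D3:**
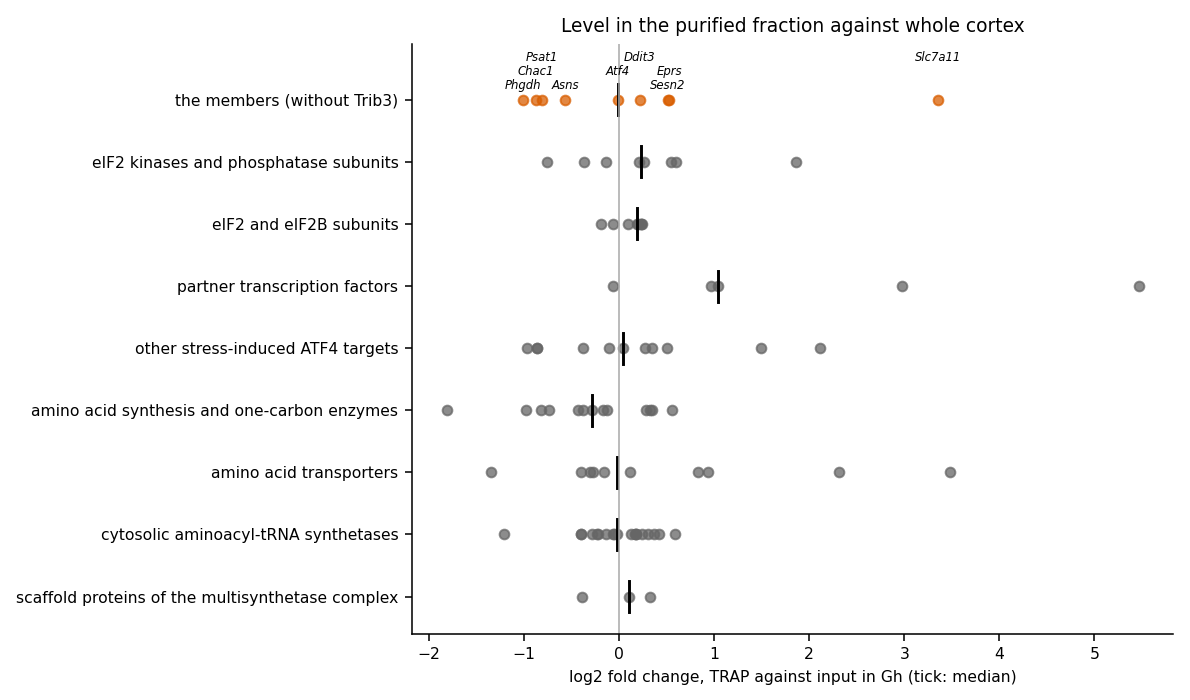
Log2 fold change of TRAP against input in Gh (x axis) for 9 members (orange; Trib3 left out for its low counts) and for the genes of 8 pathway lists (grey, 1 point a gene), with a tick at each median. Slc7a11 at 3.36 stands far from the other members, which lie between -1.02 for Phgdh and 0.53 for Eprs, and Nupr1 at 5.47 is the highest point of the lists.

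Between the fractions in Gh, Slc7a11 and Eprs were higher in TRAP. Phgdh (-1.02, SE 0.28), Chac1 (-0.88, SE 0.31), Psat1 (-0.82, SE 0.13) and Asns (-0.57, SE 0.17) were lower. Atf4, Ddit3 and Sesn2 differed by -0.02 to 0.51 with standard errors of 0.13 to 0.36. Of the pathway genes outside the members, 13 of 77 rose in TRAP against input in Gh and 12 fell, 32.5% in all, below the 42.2% of all genes that passed. Those that rose included Slc38a2 (2.31, SE 0.24, adjusted p = 1.89e-09), the neutral amino acid exchanger Slc1a5 (3.48, SE 0.46, adjusted p = 2.62e-07) and Slc3a2, the heavy chain that partners with xCT (0.94, SE 0.13, adjusted p = 9.39e-07). Eif2ak2, the kinase PKR that senses double-stranded RNA, rose by 1.86 (SE 0.21, adjusted p = 8.3e-09). So did Pmaip1, which encodes the cell death protein NOXA (2.11, SE 0.32, adjusted p = 2.5e-06), and Sqstm1 (1.49, SE 0.24, adjusted p = 7.29e-06). Among those that fell were Bcat1, the cytosolic branched-chain transaminase (-0.99, SE 0.14, adjusted p = 1.51e-06), and Impact, an inhibitor of the kinase GCN2 that is strong in neurons (-0.76, SE 0.09, adjusted p = 5.11e-08). Ero1l, an oxidase of the endoplasmic reticulum (-0.86, SE 0.12, adjusted p = 8.5e-07), Gpt2 (-0.73, SE 0.14, adjusted p = 4.95e-05) and Got1 (-0.43, SE 0.11, adjusted p = 0.00273) also fell. So did 4 of the 19 cytosolic synthetases, among them Farsb (-0.40, SE 0.12, adjusted p = 0.00605), Farsa (-1.21, SE 0.36, adjusted p = 0.00736) and Yars (-0.40, SE 0.14, adjusted p = 0.0233).

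**Figure D4:**
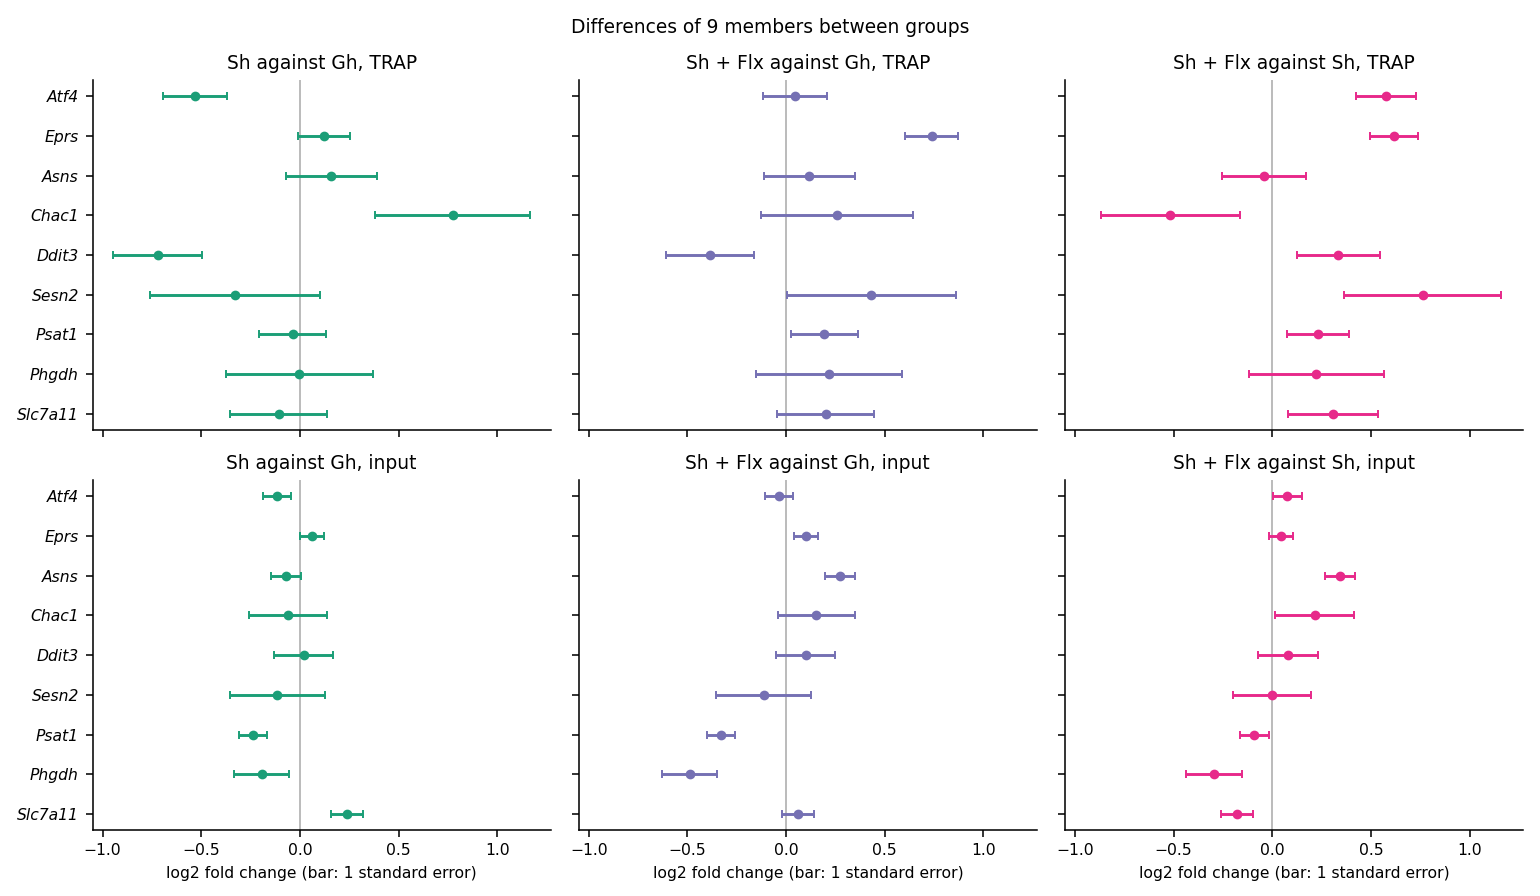
Log2 fold change (x axis, bars of 1 standard error) of 9 members (y axis; Trib3 left out for its low counts) for Sh against Gh, Sh + Flx against Gh and Sh + Flx against Sh in TRAP (top) and input (bottom). In TRAP, Atf4 lies at -0.53 for Sh against Gh and at 0.58 for Sh + Flx against Sh, whereas in input Asns lies above 0 and Psat1 and Phgdh below 0 in Sh + Flx against Gh.

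Over the set, members were placed in both directions. In TRAP, 2 of the 10 members (Atf4 and Eprs) passed the threshold in Sh + Flx against Sh, where 6.46% of all genes did, and none in the other 5 comparisons between TRAP groups, where 0% (Sh against Gh, and Sh + Flx anxious against Sh + Flx), 0.00597% (Sh + Flx against Gh), 0.0716% (Sh + Flx anxious against Gh) and 10.5% (Sh + Flx anxious against Sh) did. Without Sh TRAP 2 and 3, Eprs passed in both fluoxetine groups against Gh and against Sh, and no other member passed between TRAP groups. The shares above are those with all libraries and do not apply to that fit. Its calls over all genes are given below for Sh + Flx only, so the Eprs calls in Sh + Flx anxious cannot be set beside a share. In Sh against Gh no gene passed with edgeR, but 2634 had an unadjusted p under the same threshold and 204 passed with DESeq2. In Sh + Flx anxious against Sh + Flx the counts were 0, 724 and 9. In input, of the 9 members tested, 3 passed in Sh + Flx against Gh (5.31% of all genes), 4 in Sh + Flx anxious against Gh (11.5%), 1 in Sh + Flx against Sh (2.62%) and 3 in Sh + Flx anxious against Sh (6.86%). None passed in input of Sh against Gh (0.0829%) or of Sh + Flx anxious against Sh + Flx (0.127%). In the change in TRAP minus that in input, Eprs alone passed among the members for Sh + Flx against Gh (0.0529% of all genes) and against Sh (2.97%). The call against Gh was kept in only 9 of 23 alternatives, and that against Sh in 22 of 24. Between TRAP and input in Gh, 6 of 10 passed (42.2%) and 7 did not overlap (49.7%). Since the members were chosen with these values known, the counts are not evidence about the set. The comparisons with Gh share the Gh libraries, and those with Sh share the Sh libraries.

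Counted by overlap of libraries, 4 members stood apart in TRAP of Sh + Flx against Gh (Eprs, Trib3 and Slc7a11 above, Ddit3 below), beside 10.4% of all genes. Of these, Slc7a11 counts by the step from 832.8 CPM in a Gh library to 833.4 CPM in a Sh + Flx library, and Trib3 rests on Gh counts at the floor. In Sh + Flx anxious against Gh 4 did (Eprs, Chac1 and Psat1 above, Ddit3 below), beside 13.4%. In Sh against Gh the 2 that stood apart, Atf4 and Ddit3, were both lower (13.1% of all genes). Against Sh, 3 stood apart in Sh + Flx (15.1%) and 2 in Sh + Flx anxious (18%), all above, and none in Sh + Flx anxious against Sh + Flx (4.48%). With only Sh TRAP 1 and 4 kept in Sh, 7 members stood apart from Gh (4 above and 3 below, beside 43% of all genes), 5 in Sh + Flx against Sh (37.3%) and 4 in Sh + Flx anxious against Sh (42.2%). In input the counts were 2 for Sh against Gh (5.87%), 2 for Sh + Flx against Gh (10.9%), 4 for Sh + Flx anxious against Gh (13.7%), 2 for Sh + Flx against Sh (9.48%), 2 for Sh + Flx anxious against Sh (12%) and 0 for Sh + Flx anxious against Sh + Flx (5.32%). Atf4 and Eprs both stood above Sh in Sh + Flx, but Atf4 overlapped with Gh there while Eprs was above it.

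Of the 77 pathway genes tested outside the members, 3 rose and none fell in TRAP of Sh + Flx against Sh, which is 3.9% beside 6.46% of all genes, and 3 rose in Sh + Flx anxious against Sh, beside 10.5%. Without Sh TRAP 2 and 3, 3 and 6 passed, of which 1 (Sqstm1) and 3 (Eif2s2, Hars and Sqstm1) were among the former. The shares of all genes given here are those with all libraries and do not apply to the counts without that pair. None passed in the other 4 comparisons of TRAP groups with edgeR or DESeq2, where 3 to 11 genes had an unadjusted edgeR p under the threshold. In input 2 rose and 1 fell in Sh + Flx against Gh, 3.9% beside 5.31%, and 5 rose and 2 fell in Sh + Flx anxious against Gh, 9.09% beside 11.5%. In input of Sh + Flx against Sh none passed with edgeR or DESeq2 (11 at an unadjusted edgeR p under the threshold), with 60 of 77 positive and a median of 0.12, beside a median over all genes of -0.00353. With all libraries, these shares are near or below those of all genes.

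The IRE1 and ATF6 branches of the unfolded protein response run beside the kinase PERK. Of 22 genes of these branches, 5 rose in input of Sh + Flx anxious against Gh, beside 11.5% of all genes. Atf6, the sensor of its branch, rose by 0.37 (SE 0.06, adjusted p = 2.82e-05), from 173 ± 10.3 to 223 ± 6.67 CPM. The chaperones Hspa5 and Hyou1 rose by 0.35 (SE 0.07, adjusted p = 0.000798) and 0.37 (SE 0.08, adjusted p = 0.00397). Against Sh in input, Atf6 (0.28, SE 0.06, adjusted p = 0.00128) and Hyou1 (0.37, SE 0.09, adjusted p = 0.00579) rose in Sh + Flx anxious, beside 6.86% of all genes. In TRAP of Sh + Flx anxious against Sh, 3 of the 22 rose, beside 10.5% of all genes: Sdf2l1 (1.18, SE 0.29, adjusted p = 0.0196), Hspa5 (0.50, SE 0.14, adjusted p = 0.0302) and Pdia3 (0.66, SE 0.19, adjusted p = 0.0323). Without Sh TRAP 2 and 3 none of these 3 passed (0.80, 0.47 and 0.39, adjusted p = 0.126, 0.0532 and 0.191). In input of Sh + Flx, 1 of the 22, Atf6, rose against Gh (0.23, SE 0.06, adjusted p = 0.0104), beside 5.31% of all genes, and 1, the chaperone Dnajb9, fell by 0.32 on the log2 scale against Sh (SE 0.09, adjusted p = 0.0496), beside 2.62%, a call lost in 8 of 14 alternatives. Between the fractions in Gh, 11 of the 22 rose and 2 fell, beside 42.2% of all genes that passed there. Pdia3 was at 0.97 (SE 0.15, adjusted p = 5.37e-06), Dnajc3 at 1.08 (SE 0.18, adjusted p = 9.26e-06) and Atf6 at -0.71 (SE 0.14, adjusted p = 8.96e-05).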

How the data were processed

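The 32 count tables, as deposited by the authors, give whole-number counts of reads for each gene in each library, not normalized. Per the study's methods and the labels, RNA was amplified with NuGEN Ovation RNA-Seq V2, an unstranded kit, and read in pairs of 75 bases. The authors aligned reads with TopHat2 2.0.11 to mm10 with UCSC gene models. For the program that counted the reads, and its use of strand, nothing is given in the sources used here. The 6 tables of the authors' own comparisons (mean FPKM by Cufflinks 2.2.1, fold changes and p-values) were not used. Summary lines (5 a table) without a gene name were dropped before scaling, of which no feature held 25.2 to 58.6% of reads in TRAP. Precision follows total counts of 9776244 to 64788703 a library.

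Genes were tested with edgeR 4.0.16 (quasi-likelihood, TMM scaling, filterByExpr, Benjamini-Hochberg over all genes, threshold 0.05) in R 4.3.3, in separate fits of 15 TRAP libraries (16754 genes) and 16 input libraries (15690 genes), and a joint fit for TRAP against input and for the difference of changes (17015 genes). CPM are TMM-scaled. The members and lists were chosen with earlier results of these data known. From each list and comparison up to 3 genes with the smallest p among those that passed are named, and of lists with no call only Aars is given as a value. The marker genes Igf2, Igfbp2, Gad2 and Pvalb, and genes that passed only without Sh TRAP 2 and 3, were picked after their values were seen. Sequences are from RefSeq (GRCm38.p6), in which all 10 members were matched. The code was tested on simulated counts. Alternatives were DESeq2 1.42.0, RLE scaling, no filter, a replicate block, fewer samples, separate Gh TRAP 2 and 3, and summed replicates.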

Additional observations from a re-analysis of the deposited data

Results flagged for a closer look

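Of 63 groups of 4 libraries searched for a value far from the rest, 2 had one, and chance alone gives about 1 in 20. Atf4 in the second Sh + Flx TRAP library was at 122.2 CPM, with the other libraries of the group at 105.9 to 107.5 CPM. Eprs in the third Sh input library was at 99.74 CPM, with the others at 98.7 to 98.77 CPM, a gap that is small beside the spread of the other groups.

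Among the pathway genes outside the members, 2 changed differently in TRAP and input between Sh + Flx and Sh, by edgeR's test of the difference adjusted over all genes. The difference of changes was 1.427 (SE 0.32, adjusted p = 0.0215) for Sqstm1 and -2.822 (SE 0.69, adjusted p = 0.0279) for Stc2, which encodes the secreted glycoprotein stanniocalcin 2. Stc2 was at 1.26 ± 0.559 CPM in Sh and 0.456 ± 0.203 CPM in Sh + Flx in TRAP, and at 0.639 ± 0.126 and 1.63 ± 0.361 CPM in input (SD, n = 4 each). The Stc2 call was lost in 8 of 24 alternatives, with an adjusted p of up to 0.562, and that of Sqstm1 in 2 of 24. Without Sh TRAP 2 and 3 the Stc2 difference of changes was -3.02 (adjusted p = 0.0337).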

How the results depend on the processing

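The counts of pathway genes that passed are given under each alternative that moved them. With only the groups compared in the fit, the count in TRAP went from 0 to 2 for Sh + Flx against Gh, from 0 to 1 for Sh + Flx anxious against Gh, and from 3 to 0 for both Sh + Flx and Sh + Flx anxious against Sh. In input it went from 0 to 1 for Sh + Flx against Sh. For the change in TRAP minus that in input it went from 0 to 1 for Sh + Flx anxious against Gh and from 2 to 1 for Sh + Flx against Sh. Without Sh TRAP 2 and 3 these counts were 2, 1 and, for Sh + Flx anxious against Sh, 6 in TRAP, and 2 and 1 for the differences of changes. With replicates 1 and 4, and 2 and 3, summed, the counts were 0 for both fluoxetine groups against Sh in TRAP, 0 for Sh + Flx against Gh, 2 in place of 7 for Sh + Flx anxious against Gh and 0 in place of 2 for Sh + Flx anxious against Sh in input, and 0 for the difference of changes of Sh + Flx against Sh. These pairs were the closest in 7 of 8 groups, and summing them leaves 2 samples a group. DESeq2 gave 7 and 5 in place of 3 for Sh + Flx and Sh + Flx anxious against Sh in TRAP, 1 for Sh + Flx anxious against Sh + Flx in input and 1 for the difference of changes of Sh + Flx anxious against Gh. With Gh TRAP 2 and 3 kept separate the count was 5 for Sh + Flx against Sh in TRAP and 1 for that difference of changes. The cause of these shifts was not tested.

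Over all groups, replicate numbers did not pair the libraries. Deviations of same-numbered libraries correlated at -0.232 to 0.173 between TRAP groups, where 6 of 24 libraries were most like their own number. The values were -0.117 to 0.104 between input groups (8 of 24) and -0.0245 to 0.0841 between fractions of a group (4 of 16). For single pairs of groups this was 0 to 4 libraries. It was 4 for Sh + Flx with Sh + Flx anxious TRAP and for Sh with Sh + Flx input. The summed choroid plexus markers were lower in replicates 1 and 4 than in 2 and 3 of Sh + Flx in both fractions. These were 51.6 to 55.3 against 85.2 to 102 CPM. The same held in Gh and Sh + Flx anxious, and the reverse in Sh. Its cause was not tested. With the replicate number as a block the count of pathway genes for Sh + Flx against Sh in TRAP was 1. Over all genes the block left 291 of 1083 calls there and 904 of 1757 for Sh + Flx anxious against Sh.

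Leaving out 1 library at a time gave 1 to 8 pathway genes for Sh + Flx against Sh in TRAP (8 without Sh TRAP 1, 7 without Sh TRAP 4, and 1 without Sh TRAP 2 or without Sh + Flx TRAP 1, 2 or 4), 3 to 10 for Sh + Flx anxious against Sh in TRAP (8 without Sh TRAP 1, 10 without Sh TRAP 4), and 1 to 8 for the difference of changes of Sh + Flx against Sh (7 without Sh TRAP 1, 8 without Sh TRAP 4, and 1 without Sh TRAP 3, Sh + Flx TRAP 2, Sh + Flx input 4 or Sh input 2, 3 or 4). In input the range was 0 to 3 for Sh + Flx against Gh (0 without Sh + Flx 1, and 1 without Gh 2, Gh 3 or Sh + Flx 4) and 2 to 7 for Sh + Flx anxious against Gh (2 and 3 without Sh + Flx anxious 2 and 3, and 4 without Gh 2, Gh 3 or Sh + Flx anxious 1). For Sh + Flx anxious against Sh it was 0 to 3 (0 without Sh 1, 2 or 3 or Sh + Flx anxious 4, and 1 without Sh 4 or Sh + Flx anxious 1 or 3). Over all genes the calls for Sh + Flx against Sh in TRAP were 1083 with edgeR, 2395 with DESeq2, 353 without Sh TRAP 2 and 3 and 0 with only those groups in the fit. For Sh + Flx against Gh in TRAP they were 1, 82, 195 and 136. Among the members, the Eprs call in TRAP of Sh + Flx against Sh was kept in 14 of 16 alternatives and that of Atf4 in 7 of 16. In input there were 14 alternatives. Asns kept its calls against Gh in 7 (Sh + Flx) and 6 (Sh + Flx anxious), and against Sh in 11 for each. Phgdh kept them in 6 and 14 against Gh, and in 7 for Sh + Flx anxious against Sh. Psat1 kept them in 13 and 14 against Gh. Atf4 kept its call in 12 and Slc7a11 in 9. No call reversed direction under these alternatives. Trib3 is limited by depth, with at most 52 counts in a library.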

Other observations

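The genes whose level followed that of Atf4 most closely over the 15 TRAP libraries were Naa60 (Pearson's r = 0.955), Tomm7 (0.940), Snx9 (0.922) and Rheb (0.921). Those closest to Eprs were Gprc5a (0.947), Mut (0.922), Caprin1 (0.900) and Rgs2 (0.897). These correlations are a description over libraries that share groups and depth. They include Sh TRAP 2 and 3, which hold the lowest values of Atf4, and were not computed without that pair. Among paralogs of the members, Trib2, a pseudokinase related to Trib3, rose in input of Sh + Flx anxious against Gh (log2 difference 0.42, SE 0.10, adjusted p = 0.00401) and against Sh (0.56, SE 0.10, adjusted p = 0.000307). Trib1, its relative, rose in TRAP of Sh + Flx against Sh (0.60, SE 0.17, adjusted p = 0.0418) and lost the call without Sh TRAP 2 and 3 (adjusted p = 0.0912). Between the fractions in Gh, Sesn3 was lower in TRAP (-0.94, SE 0.11, adjusted p = 3.84e-08), and Sesn1 (0.57, SE 0.13, adjusted p = 0.000477) and Trib2 (0.67, SE 0.18, adjusted p = 0.00294) were higher. Among mitochondrial synthetases, Tars2, which charges threonyl-tRNA, fell by 1.58 on the log2 scale in TRAP of Sh + Flx anxious against Sh (SE 0.25, adjusted p = 0.00283), from 8.43 ± 0.658 to 2.82 ± 0.536 CPM (n = 4 each), and by 1.47 without Sh TRAP 2 and 3 (adjusted p = 0.00841). Yars2 rose there (0.65, SE 0.18, adjusted p = 0.0294), a call lost without that pair (adjusted p = 0.0987). Lars2 fell by 0.23 on the log2 scale in input of Sh + Flx (SE 0.06, adjusted p = 0.0125) and of Sh + Flx anxious (SE 0.06, adjusted p = 0.00644) against Gh. Between the fractions in Gh, Iars2 (0.78, SE 0.16, adjusted p = 0.000158) and Lars2 (0.43, SE 0.15, adjusted p = 0.0183) were higher in TRAP and Wars2 was lower (-0.96, SE 0.34, adjusted p = 0.0234). Each adjusted p is from edgeR over all genes.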
